A study of Canis lupus familiaris with 6 samples.

Results

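Mitochondrial fatty acid oxidation was examined at the transcript level through 10 named genes: the carnitine shuttle genes CPT1A, SLC25A20 and CPT2, the acyl-CoA dehydrogenase genes ACADVL and ACADM, the later cycle genes HADHA, HADHB, HADH and ACAA2, and ETFDH, which passes the electrons on. Members were matched by gene symbol. Of these, 8 matched a row among the 29822 gene rows of each library, and all 8 passed the filter on low counts together with 15397 genes in all. No row carried the name HADHB or ACAA2, and both genes were not analysed here. The cells were CMM10, a canine malignant melanoma line, kept without further stated treatment under hypoxia (3 libraries) or normoxia (3 libraries). The labels give no oxygen level and no duration, the line is a single one, and nothing says that the replicates were separate cultures, so every p-value below measures only the spread between these libraries, which may be technical.

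Long-chain fatty acids enter mitochondria as carnitine esters. CPT1A, on the outer membrane, makes the ester and is the controlled step, since malonyl-CoA blocks it; SLC25A20 carries the ester across the inner membrane, and CPT2 turns it back into acyl-CoA. Each turn of the cycle then runs through a dehydrogenase chosen by chain length (ACADVL for very long, ACADM for medium chains), a hydratase, a second dehydrogenase and a thiolase, with HADHA and HADHB forming the trifunctional protein for long chains and HADH and ACAA2 serving shorter ones. The first dehydrogenase step passes its electrons through ETFA, ETFB and ETFDH to the respiratory chain, so the pathway depends on oxygen as the final acceptor.

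Library totals were 23196647 to 28804337 gene reads. The hypoxia labels were matched by hypoxia markers, with CA9 13.7-fold and EGLN3 11.3-fold higher under hypoxia. Of the melanocyte markers, SOX10, DCT, MITF and SLC45A2 were expressed at group means between 23.5 and 72.2 TPM. EDNRB and KIT followed at group means between 8.85 and 11.5 TPM. PMEL (1.75 TPM under hypoxia and 1.76 under normoxia) and MLANA (0.65 and 1.47 TPM, 8 to 27 reads per library) were low. TYR was listed at 0 TPM in all 6 libraries, and TYRP1 and TRPM1 stayed below the count filter. Among 10 measured markers of leukocytes, endothelium and epithelium, CD3E was listed at 0 TPM and PTPRC and PECAM1 stayed below the filter. The B-cell gene CD79A (485.0 to 522.2 TPM) and the epithelial genes EPCAM (136.5 to 166.1 TPM) and CDH1 (96.8 to 138.7 TPM), however, were high in every library. KRT18, also epithelial, was low (1.05 to 3.53 TPM), as were CD68 (0.23 to 0.99 TPM) and CDH5 (0.04 to 0.31 TPM). The summed level of the 10 markers was 778.1 to 803.1 TPM under hypoxia and 760.1 to 791.4 TPM under normoxia, most of it CD79A. The change of CD79A did not pass the test (-0.01). Whether the reads of the CD79A model come from that gene was not tested. Single markers did change: CDH1 (0.47) and VWF (1.44, below 2 TPM) rose and EPCAM (-0.15) fell, and of the melanocyte markers SOX10 (0.40) and SLC45A2 (0.48) rose and DCT (-0.23) fell, all with an adjusted p below 0.05 by edgeR. Their part in the results below was not tested, and in bulk RNA fewer cells with a transcript and less transcript per cell cannot be told apart.

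Among the 8 measured members the entry steps had the largest changes under hypoxia: CPT1A fell by 41.7% and SLC25A20 fell by 36.2%, while CPT2, the last step of the same shuttle, did not pass the test (-5.43%). ETFDH fell by 17.1% and ACADM fell by 9.72%. HADH was the one member that rose, by 13.5%, and ACADVL and HADHA did not pass the test. In all, 4 of the 8 measured members were lower and 1 was higher by edgeR's quasi-likelihood test at an adjusted p below 0.05, against a background of 24.4% lower and 24.5% higher among all genes tested. The median log2 fold change was -0.11 over the 8 members and 0.00096 over all genes tested. No member changed by more than 2-fold. Levels below are CPM of gene reads, scaled by TMM to the effective library size and including intron reads, and changes are log2 fold changes of hypoxia over normoxia with their SE.

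**Figure D1:**
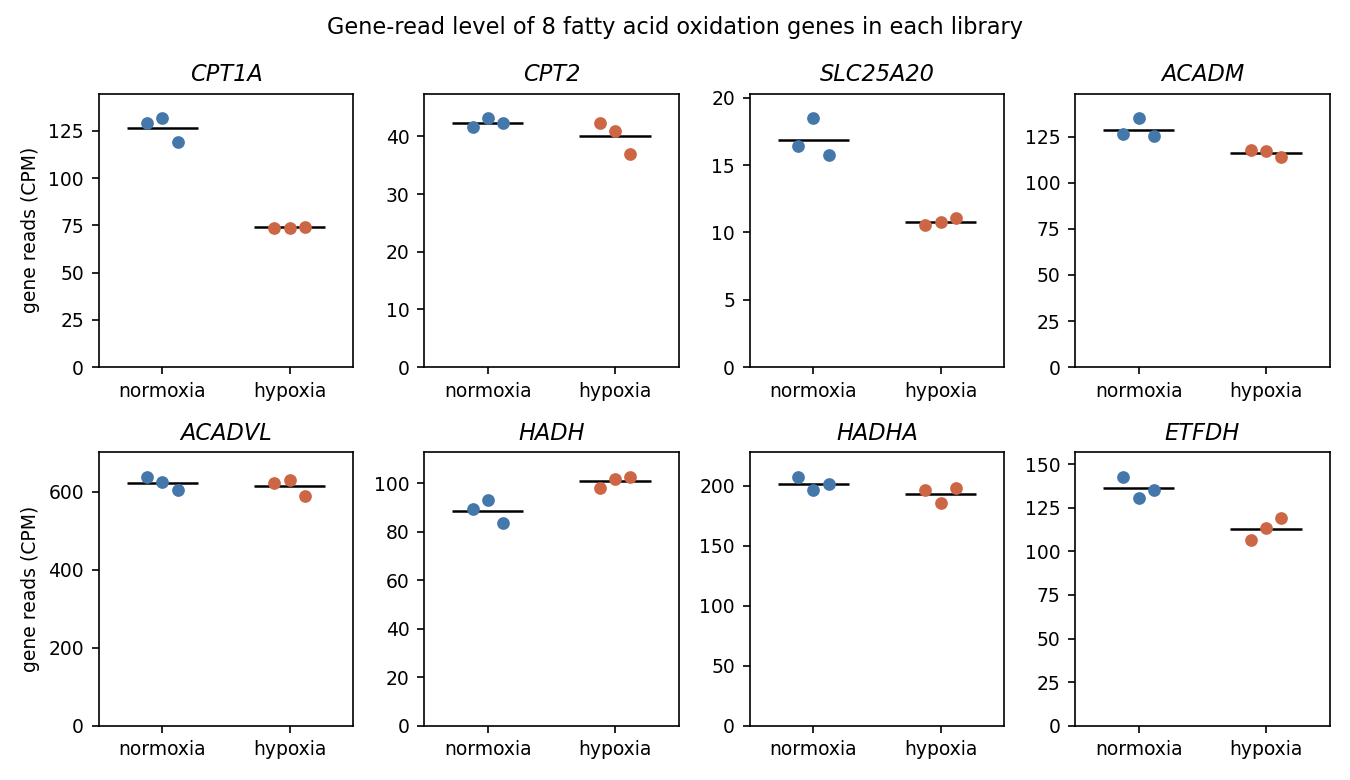
Gene-read level in CPM (vertical axes from 0, each gene on its own scale) of the 8 measured members in the 3 normoxia (blue) and 3 hypoxia (orange) libraries; each point is a library and each line a group mean. The groups are apart for CPT1A, SLC25A20, ACADM, ETFDH and HADH and overlap for CPT2, ACADVL and HADHA.

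CPT1A stood at 129.1, 131.6 and 119.2 CPM in normoxia replicates 1, 2 and 3 and at 73.9, 73.8 and 74.0 CPM in hypoxia replicates 1, 2 and 3. The groups were far apart, and the hypoxia libraries were nearly identical. The change was -0.78 ± 0.044 (adjusted p = 6.51e-16 by edgeR), which put CPT1A among the lowest 1.51% of all tested genes by fold change. The gene lies on the forward strand of chromosome 18 (49136691 to 49190117, CanFam3.1), and no other model overlaps it.

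SLC25A20, the carnitine and acylcarnitine carrier, was the member of lowest level and rested on 292 to 508 reads per library. It measured 16.4, 18.5 and 15.8 CPM under normoxia and 10.6, 10.7 and 11.0 CPM under hypoxia, again without overlap (-0.65 ± 0.095, adjusted p = 8.96e-07 by edgeR). It lies on chromosome 20 (40244229 to 40270433, forward strand) with no overlapping model. CPT2, on the reverse strand of chromosome 5 (55718510 to 55744809), was at 41.6, 43.1 and 42.4 CPM under normoxia and 42.3, 40.9 and 37.0 CPM under hypoxia. These values overlapped. The estimate was -0.08 ± 0.060, with a 95% interval from -0.20 to 0.04 (adjusted p = 0.285 by edgeR), so a fall of the size seen for CPT1A lies outside that interval.

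The ratio of both carnitine palmitoyltransferases within a library does not depend on how libraries are scaled. The log2 ratio of CPT1A to CPT2 gene reads was 1.63, 1.61 and 1.49 in the normoxia libraries and 0.80, 0.85 and 1.00 in the hypoxia libraries. It differed by -0.69 between groups, more than the spread within either, in a two-sided exact permutation test with p = 0.1, the smallest that 3 against 3 libraries allow (0.1 also after Benjamini-Hochberg adjustment over 3 ratios). The log2 ratio of CPT1A to SLC25A20 averaged 2.91 ± 0.072 under normoxia and 2.78 ± 0.030 under hypoxia (SD, n = 3 per group, exact permutation p = 0.1). Its difference of -0.13 was -0.26 when taken from exon reads (exact permutation p = 0.1, adjusted p = 0.15).

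ACADM, the medium-chain dehydrogenase, measured 126.3, 134.9 and 125.4 CPM under normoxia and 117.9, 117.2 and 113.9 CPM under hypoxia. All hypoxia libraries lay below all normoxia libraries, though the gap was small (-0.15 ± 0.041, adjusted p = 0.00306 by edgeR). The gene is on the reverse strand of chromosome 6 (70853061 to 70878668).

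HADHA, the trifunctional protein subunit that carries the hydratase and long-chain hydroxyacyl-CoA dehydrogenase activities, was at 207.5, 196.2 and 201.6 CPM under normoxia and 196.5, 185.4 and 198.4 CPM under hypoxia. The groups overlapped, and the change of -0.06 ± 0.037 did not pass (adjusted p = 0.187 by edgeR, 95% interval -0.14 to 0.02). It lies on chromosome 17 (20307226 to 20355508, reverse strand). HADH, the hydroxyacyl-CoA dehydrogenase for shorter chains, moved the other way, from 89.1, 93.1 and 83.7 CPM under normoxia to 97.9, 101.5 and 102.5 CPM under hypoxia. Every hypoxia library exceeded every normoxia library (0.18 ± 0.045, adjusted p = 0.00106 by edgeR).

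ETFDH, the ubiquinone oxidoreductase that hands electrons from fatty acid oxidation to the respiratory chain, fell from 142.7, 130.6 and 135.4 CPM to 106.3, 113.5 and 119.1 CPM. The groups did not overlap (-0.27 ± 0.044, adjusted p = 4.91e-06 by edgeR). Its partners, the subunits of the electron transfer flavoprotein, were fixed for description alongside it. ETFA fell from 182.8 ± 5.05 to 144.2 ± 3.92 CPM (SD, n = 3 per group; -0.34 ± 0.038, adjusted p = 4.58e-09 by edgeR). ETFB fell from 43.1 ± 1.71 to 37.8 ± 0.59 CPM (-0.19 ± 0.058, adjusted p = 0.00674 by edgeR). All 3 genes of this electron route were thus lower under hypoxia, as were 24.4% of all genes tested.

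Across the 8 members, 4 had all hypoxia libraries below all normoxia libraries, where 27.5% of all tested genes did, and 1 had them all above, where 27.8% did. With library size as the only scaling, 7 members were called lower and 1 higher. CPT2 (-0.15, adjusted p = 0.0448 by edgeR), HADHA (-0.13, adjusted p = 0.00451 by edgeR) and ACADVL (-0.08, adjusted p = 0.0366 by edgeR) then passed, while the median of all genes moved to -0.07. That scaling called 4862 genes lower and 3076 higher over all genes, against 3761 and 3778 with TMM scaling. The calls for CPT2 and HADHA therefore turn on the scaling, and that for ACADVL on the scaling and, as given below, on the kind of read. Those of CPT1A, SLC25A20, ACADM, ETFDH and HADH held under all 13 alternatives tried.

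Gene reads join exon and intron reads, and their mix differed widely between members. Introns held 5.43% of the reads of HADHA, 10.7% for CPT1A, 19.1% for ACADM, 26.9% for SLC25A20, 27.9% for CPT2, 35.8% for ETFDH, 45.7% for HADH and 75.8% for ACADVL. The members with the highest shares are those whose gene models overlap other models: ACADVL overlaps 18, ETFDH 2 and HADH 1, and the other 5 members none. The library kit is one that does not mark strand, so reads from overlapping genes on either strand cannot be told apart by strand.

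ACADVL is the extreme case. Its model spans 141489 bases of chromosome 5 (32186502 to 32327990, forward strand), with only 3187 bases of exon, and 16 other models lie wholly inside it. Among those inside are GABARAP, an autophagy gene with 29025 gene reads over the 6 libraries, and a protein-coding model without symbol with 88883. GABARAP did not pass the test (0.0088), and the model with 88883 reads fell by 0.37 (adjusted p = 1.99e-10 by edgeR). Of the 14 overlapping models tested, 6 were lower and 3 higher, with 24.4% and 24.5% among all genes tested. ACADVL itself was given 75370 intron reads and 24025 exon reads. How many of its intron reads came from the genes inside was not tested.

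**Figure D2:**
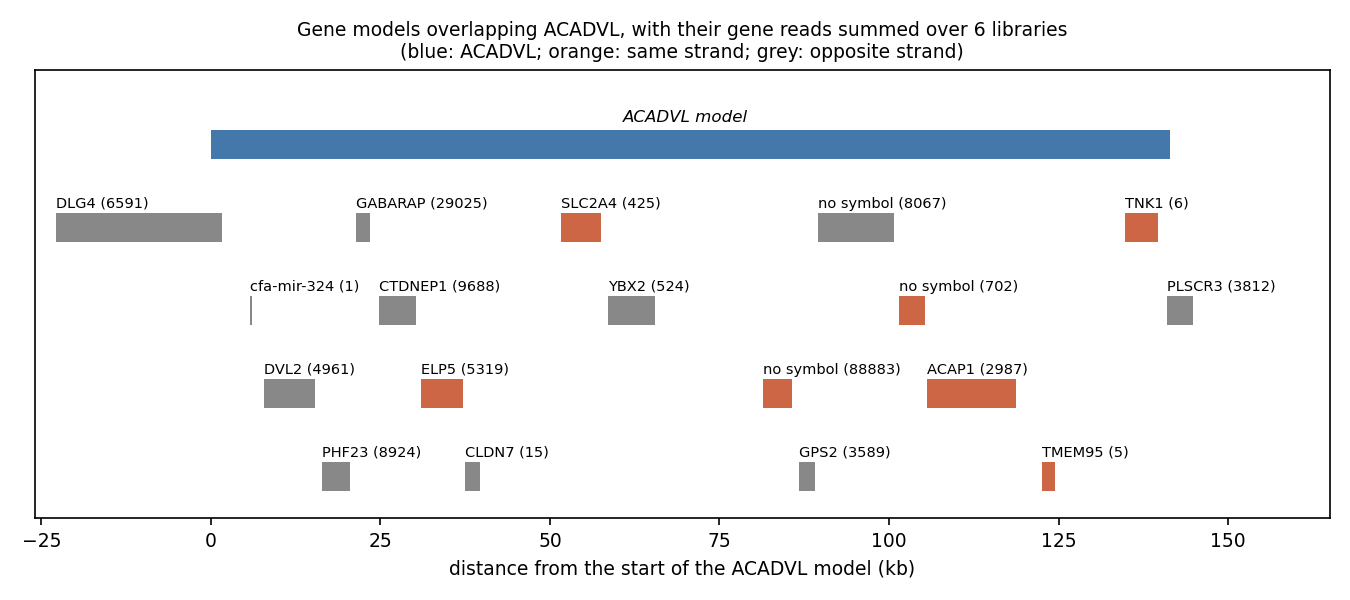
Map of the ACADVL gene model (blue) and the 18 models that overlap it, drawn against distance in kilobases from the start of the ACADVL model; orange models share its strand and grey ones lie on the other strand. The number after each name is that model's gene reads summed over the 6 libraries, from 1 to 88883.

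By gene reads ACADVL did not differ, at 638.8, 625.7 and 604.3 CPM under normoxia and 624.3, 630.7 and 590.5 CPM under hypoxia (-0.02 ± 0.034, adjusted p = 0.701 by edgeR). By exon reads it was slightly lower, at 210.3, 209.1 and 199.0 CPM of exon reads under normoxia and 191.7, 199.0 and 179.1 under hypoxia. The lowest normoxia library and the highest hypoxia library met. The exon change was -0.12 ± 0.041 (adjusted p = 0.0160 by edgeR), and reads that span 2 exons, which need a spliced transcript, gave -0.13 ± 0.041 (adjusted p = 0.00894 by edgeR). Intron reads gave 0.03 ± 0.042 (adjusted p = 0.629 by edgeR). The difference of exon and intron change was -0.15 ± 0.053 and did not pass its own test (adjusted p = 0.0830 by edgeR).

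The choice also changed the comparison of both dehydrogenases. The log2 ratio of ACADVL to ACADM was higher under hypoxia by 0.13 in gene reads (exact permutation p = 0.1). In exon reads the difference was 0.012 (exact permutation p = 0.7) and in exon-exon reads -0.00253 (exact permutation p = 1). Both were smaller than the spread within either group. From exon reads 5 members were lower and 1 was higher, with 23.8% lower and 24.4% higher among 13458 genes tested. Exon-exon reads gave the same counts, 5 and 1, with 21.8% and 22.6% among 11288 genes.

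For HADH, on chromosome 32 (28460193 to 28531280, forward strand), the overlap is with LEF1 on the other strand, which rose by 0.51. LEF1 had 1818 gene reads in all, against 6963 intron and 8265 exon reads of HADH. The rise of HADH was of like size in exon reads (0.18 ± 0.059), exon-exon reads (0.19 ± 0.062) and intron reads (0.21 ± 0.062). ETFDH, on chromosome 15 (55752200 to 55792105, forward strand), overlaps PPID, a cyclophilin gene on the other strand that fell by 0.41 and had 9895 gene reads. The overlap with PPID spans 10598 bases, and ETFDH itself had 7134 intron and 12787 exon reads. The fall of ETFDH was -0.31 ± 0.052 in exon reads, -0.34 ± 0.057 in exon-exon reads and -0.17 ± 0.062 in intron reads. Both HADH and ETFDH passed edgeR's test with each kind of read. How many of their reads came from the overlapping genes was not tested.

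**Figure D3:**
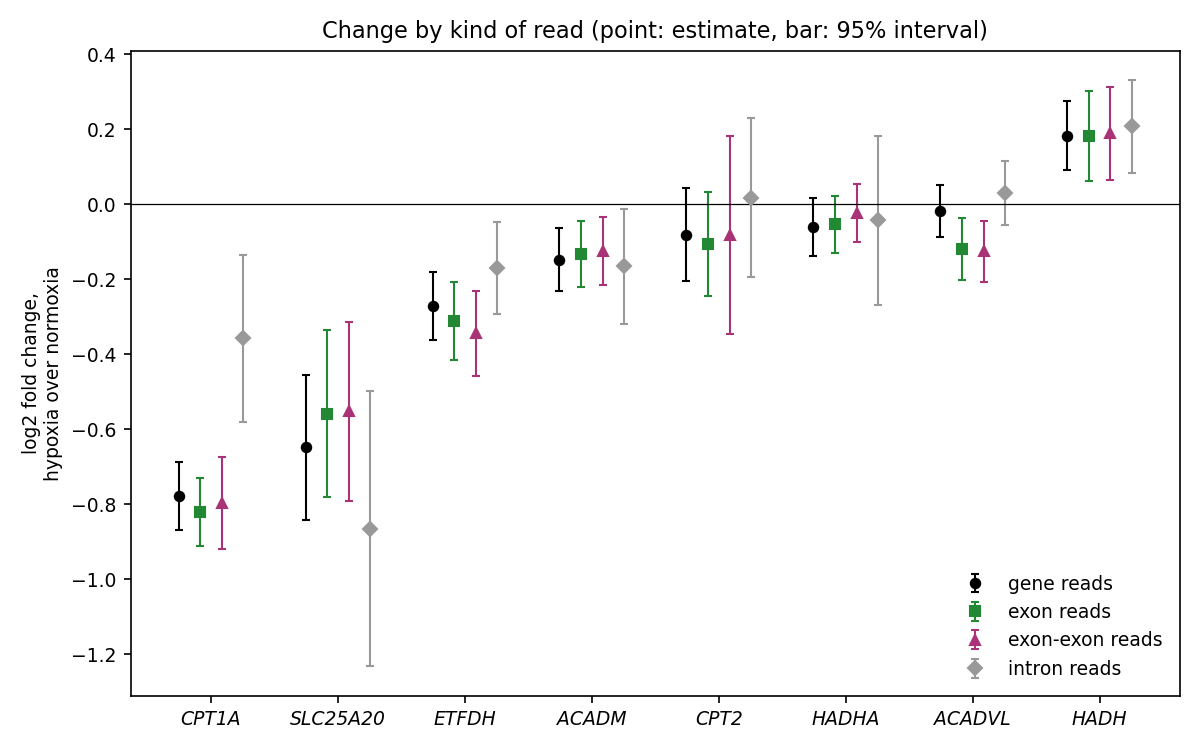
Log2 fold change of hypoxia over normoxia (vertical axis) for the 8 members, estimated from gene, exon, exon-exon and intron reads; points are estimates and bars 95% intervals. CPT1A shows exon and exon-exon changes near -0.8 with an intron change of -0.36, and the interval of ACADVL lies below 0 by exon and exon-exon reads but not by gene or intron reads.

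CPT1A was the one member called for a difference between its exon and intron changes. Its exon reads fell by 0.82 (SE 0.045) and its intron reads by 0.36 (SE 0.11) on the log2 scale. In CPM of intron reads, it measured 49.6, 51.2 and 46.6 under normoxia and 35.8, 37.8 and 41.5 under hypoxia, and the groups did not overlap there either. The share of its gene reads in introns was 9.3%, 9.4% and 9.8% in the normoxia libraries and 11.6%, 12.5% and 13.7% in the hypoxia libraries. The exon change lay below the intron change by 0.47 ± 0.10 (adjusted p = 0.00289, edgeR's test of the interaction of read kind and condition over 12265 genes). An exon change below the intron change was called in 2.68% of these genes and one above it in 2.99%. The call held in all 8 alternatives, with adjusted p from 0.00282 to 0.0316. The 241 to 341 intron reads per library set its precision.

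For the other 7 members the test gave no call. SLC25A20 had the largest opposite estimate (0.31 ± 0.22, adjusted p = 0.516 by edgeR), from only 59 to 140 intron reads per library. It was 0.15 without hypoxia replicate 1, 0.18 without normoxia replicate 1 and 0.54 without hypoxia replicate 3. In intron reads alone, 3 members were lower (CPT1A, SLC25A20 and ETFDH) and 1, HADH, was higher, with 15.7% lower and 18.7% higher among 13858 genes.

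Levels between members are compared as TPM, which divide exon reads by exon length. Under normoxia the order was ACADM (181.5 ± 6.17 TPM, SD, n = 3 here and below), HADHA (170.2 ± 7.18), ACADVL (115.9 ± 2.34), ETFDH (73.2 ± 4.60), CPT1A (58.2 ± 1.91), HADH (58.0 ± 5.12), CPT2 (32.8 ± 0.996) and SLC25A20 (24.7 ± 2.34). CPT1A and HADH overlapped, and each other pair of neighbours did not. The cycle enzymes were thus more abundant per length than the shuttle genes CPT2 and SLC25A20. Under hypoxia CPT1A moved from the fifth to the sixth place, at 32.2 ± 0.19 TPM, just above CPT2 at 29.7 ± 2.30. ACADM (161.8 ± 2.63) and HADHA (160.1 ± 4.91) then overlapped. ACADVL was at 104.3 ± 5.63, HADH at 64.4 ± 1.56, ETFDH at 57.7 ± 4.20 and SLC25A20 at 16.4 ± 0.73 TPM. The members ranged from the 55.9th (SLC25A20) to the 93.6th (ACADM) percentile of mean TPM among tested genes.

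**Figure D4:**
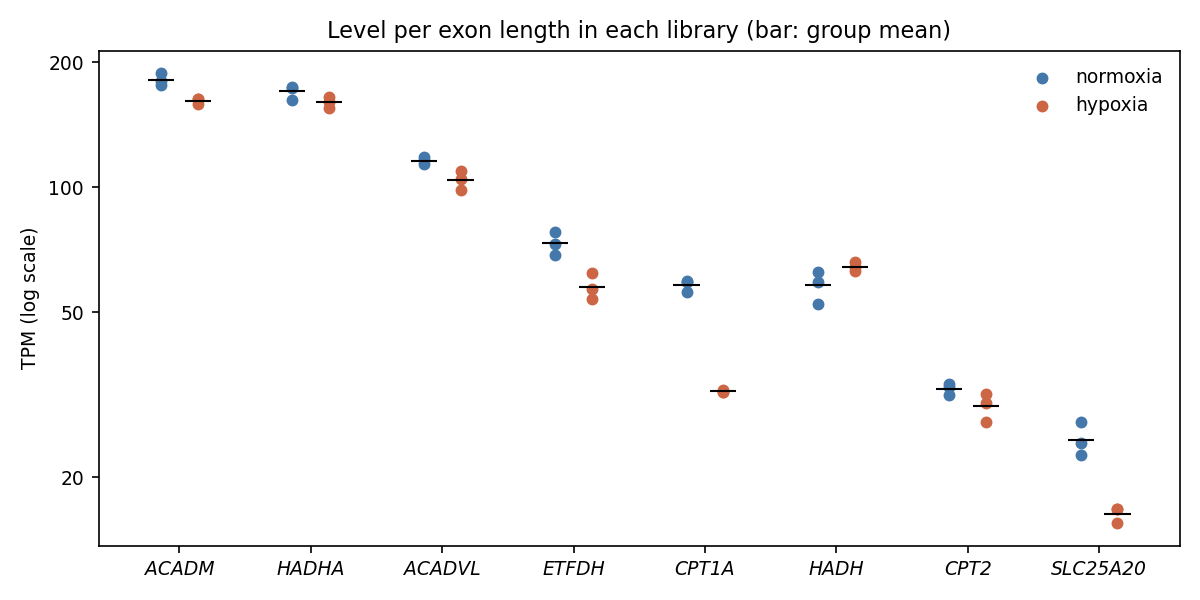
TPM (logarithmic vertical axis) of the 8 measured members, ordered by normoxia mean, in each normoxia (blue) and hypoxia (orange) library; short lines are group means. ACADM and HADHA are highest and SLC25A20 lowest in both conditions, and CPT1A drops from beside HADH to beside CPT2.

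The muscle-type and brain-type forms of the entry enzyme were below CPT1A per length. CPT1A was at 58.2 TPM under normoxia and 32.2 under hypoxia. CPT1B was at 12 TPM under normoxia and 14.1 under hypoxia, and CPT1C at 1.21 and 0.83 TPM; both were singled out after their values were seen. Neither passed the test in gene reads (0.14 ± 0.072, adjusted p = 0.0957, and -0.50 ± 0.27, adjusted p = 0.128, both by edgeR). CPT1B, whose model overlaps NCAPH2, was higher in exon reads (0.28, adjusted p = 0.00946 by edgeR).

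Other genes of the pathway were followed through 8 lists of 98 genes, of which 86 could be tested. Another 6 matched no row by symbol, and 6 had too few reads. Among genes named from these lists, other models overlap CPT1B, ETFA, ACAD9, SLC27A3, ACSS2, ACSL3, ACACA, ACACB, PRKAG2, PPARGC1B, ABHD5, OXCT1 and PCCB. What the overlapping models added to their reads was not tested. Over these lists 32 genes were lower and 19 higher, with the background of 24.4% and 24.5% given above and a median log2 fold change of -0.07. The same background applies to the gene-read counts of each list below. With library size as the only scaling these counts were 42 and 13. In the list of other mitochondrial beta-oxidation genes, 5 of 15 were lower and 1, the isomerase ECI1 (0.16), was higher. The count of 1 was 0 with library size as the only scaling or without normoxia replicate 2, and 2 without hypoxia replicate 1 or normoxia replicate 1. Beside ETFA and ETFB, the lower ones were ACAD9 (-0.27 ± 0.040), an assembly factor of complex I related to ACADVL, ACADSB (-0.26 ± 0.061) for short branched chains and HSD17B10 (-0.24 ± 0.048). The short-chain genes ACADS (-0.07) and ECHS1 (0.14) did not pass.

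The genes that control malonyl-CoA, the inhibitor of CPT1A, held the largest change of all these lists. ACACB, the acetyl-CoA carboxylase that makes malonyl-CoA at the mitochondrial surface, measured 3.77, 4.03 and 4.11 CPM in the normoxia libraries and 31.6, 35.7 and 32.2 CPM in the hypoxia libraries. Every hypoxia library was far above every normoxia library, an 8.34-fold rise (3.06 ± 0.096, adjusted p = 6.96e-23 by edgeR), and exon reads gave 3.56 ± 0.12. The model of ACACB overlaps that of FOXN4, whose share in its reads was not tested. Per length ACACB stayed low, at 6.90 TPM under hypoxia and 0.60 under normoxia. ACACA, the cytosolic form that supplies fatty acid synthesis, was at 59.3 TPM under hypoxia and 65.3 under normoxia, a slight fall (-0.09 ± 0.035, adjusted p = 0.0328 by edgeR). MLYCD, which breaks malonyl-CoA down, fell by 0.26 (SE 0.063). Of the 6 tested subunits of AMP-activated kinase, which inhibits the carboxylases, the catalytic PRKAA2 rose from a low level (1.04 ± 0.15; 3.09 TPM under hypoxia and 1.79 under normoxia) and PRKAB1 fell by 0.17 (SE 0.069). The other catalytic subunit, PRKAA1, was at 26.6 TPM under hypoxia and 31.1 under normoxia and did not pass in gene reads (-0.17, adjusted p = 0.0529 by edgeR), but did in exon reads (-0.19, adjusted p = 0.0410 by edgeR). PRKAB2, PRKAG1 and PRKAG2 did not pass. In this list 3 of 9 genes were lower and 2 higher; 1 was lower without hypoxia replicate 2 or without normoxia replicate 1.

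**Figure D5:**
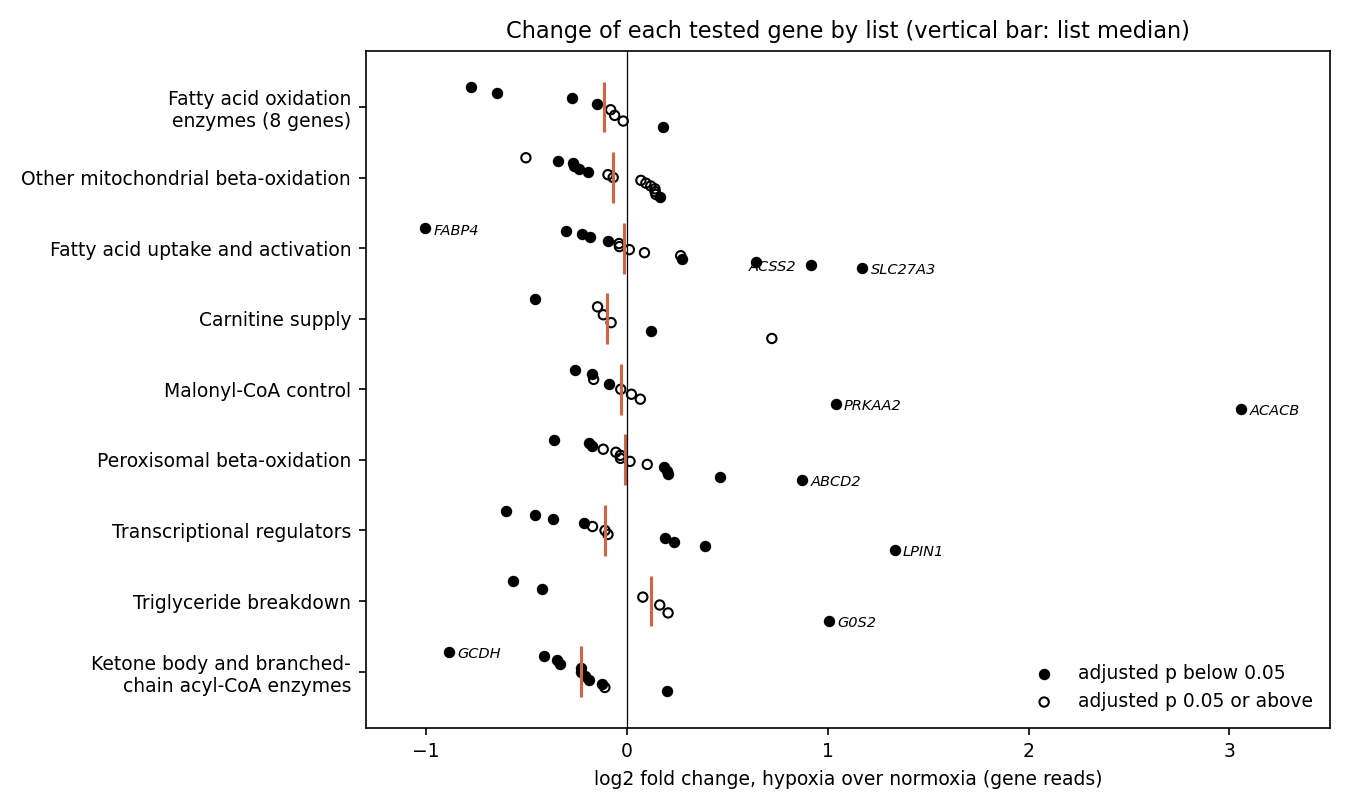
Log2 fold change of hypoxia over normoxia in gene reads (horizontal axis) for each tested gene, by list; filled points passed the test at an adjusted p below 0.05, open points did not, and vertical bars are list medians. ACACB lies farthest from 0, at 3.06, and the 8 members range from -0.78 to 0.18.

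In fatty acid uptake and activation, 5 of 14 tested genes were lower (3 with exon-exon reads) and 4 higher. The acyl-CoA synthetase and transporter SLC27A3 rose by 1.17 (SE 0.074), the acetyl-CoA synthetase ACSS2 by 0.92 (SE 0.042) and the abundant fatty acid binding protein FABP3 from 597.9 ± 20.6 to 932.7 ± 6.82 CPM (0.64 ± 0.033). FABP4 fell by 1.00 (SE 0.34) on 13 to 54 reads per library. Of the 5 long-chain synthetases tested, which make the substrate of CPT1A, ACSL3 was lower (112.3 TPM under hypoxia and 122.7 under normoxia; -0.09 ± 0.035, adjusted p = 0.0290 by edgeR). ACSL1 (0.09), ACSL4 (-0.04), ACSL5 (0.27) and ACSL6 (-0.04) did not pass, and CD36 was below the count filter. In carnitine supply, 1 of 6 genes was lower, the transporter SLC22A4 (-0.46 ± 0.087, with 58.5% of its reads in introns), and 1 higher, the carnitine synthesis gene ALDH9A1 (0.12 ± 0.039). With library size as the only scaling 4 were lower and 0 higher. The rise of 1 gene was lost without hypoxia replicate 1 or without normoxia replicate 3, and without the latter 2 genes were lower. SLC22A4 was low, at 3.33 TPM under hypoxia and 4.53 under normoxia. SLC22A5, another transporter of this list, matched no row by symbol and was not analysed.

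Peroxisomal beta-oxidation was mixed, with 3 of 14 genes lower and 5 higher. With library size as the only scaling 5 were lower and 3 higher, and without hypoxia replicate 1 the higher count was 3. Exon reads gave 2 lower and 3 higher, and exon-exon reads 1 and 3. The bifunctional enzyme EHHADH fell by 0.36 (SE 0.062). ABCD2, a transporter of very long acyl-CoA, rose in gene reads (0.87 ± 0.24, with 87.4% of its reads in introns) and was below the filter in exon reads.

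Among transcriptional regulators, 4 of 11 were lower and 4 higher; the latter count was 2 without hypoxia replicate 1 and 2 with library size as the only scaling. Exon-exon reads gave 2 lower and 2 higher. PPARGC1B (-0.60 ± 0.12) and ESRRA (-0.46 ± 0.060), a coactivator and a nuclear receptor that act on genes of oxidative metabolism, fell. LPIN1, a phosphatidate phosphatase that also acts as a coactivator, rose by 1.33 (SE 0.040) and TFAM, which maintains mitochondrial DNA, by 0.39 (SE 0.059). PPARA, the receptor best known for driving fatty acid oxidation genes in liver, was at 5.23 CPM under hypoxia and 5.56 under normoxia and did not pass (-0.09 ± 0.16, adjusted p = 0.667 by edgeR). PPARGC1A was below the count filter, with 2 to 9 reads per library.

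In triglyceride breakdown, 2 of 6 genes were lower and 1 higher, and 2 were higher without hypoxia replicate 3 or without normoxia replicate 1. Exon reads gave 2 higher and exon-exon reads 0. The lipase PNPLA2 fell from 27.6 ± 0.40 to 18.6 ± 1.27 CPM (-0.57 ± 0.074) and its activator ABHD5 by 0.42 (SE 0.034), in a model that overlaps 7 others. G0S2, an inhibitor of PNPLA2, rose by 1.01 (SE 0.28) from a low level of 20 to 73 reads per library. Of the genes of ketone bodies and branched-chain acyl-CoA, 9 of 11 were lower and 1 was higher. Among all genes tested 24.4% were lower and 24.5% higher. The lower count of this list was 8 with exon reads, DESeq2 or the replicate block, and 10 with library size as the only scaling. GCDH, a dehydrogenase of lysine breakdown that also feeds the electron transfer flavoprotein, fell from 13.5 ± 0.86 to 7.31 ± 0.87 CPM (-0.88 ± 0.11). OXCT1 (-0.41 ± 0.038), which activates ketone bodies, PCCB (-0.35 ± 0.043) and BDH2 (-0.33 ± 0.11) fell as well.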

How the data were processed

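Poly(A)-selected RNA of 6 libraries was sequenced in paired-end mode, per the labels' protocols. The authors deposited 1 table per library holding read counts for each gene, per the file headers, with exon, exon-exon and intron reads apart. The build is CanFam3.1 per the submitters' processing notes; for the aligner and counter, the answer is not given in the sources used here. TPM as deposited equal exon reads per exon length scaled to the library, within rounding. RPKM were also deposited by the authors and were not used.

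Total gene reads were filtered with filterByExpr, scaled by TMM and tested for hypoxia against normoxia, without covariates, in edgeR (quasi-likelihood test, robust), with Benjamini-Hochberg adjustment over all genes tested and calls at 0.05. SE is the size of the log2 change over the square root of F. Exon, exon-exon and intron reads were fitted alone in the same way. Exon and intron changes were compared by an interaction term with the library as block. Of 4 planned ratios, 3 were computed, since HADHB had no row. The scripts were tested on simulated data. Tools were edgeR 4.0.16, DESeq2 1.42.0 (an alternative) and limma 3.58.1 in R 4.3.3, with plots by matplotlib 3.10.9.

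Replicates of a group differed by more than sampling noise (chi-square per degree of freedom 4.22 to 13.7). Members and gene lists were chosen with earlier results of these data known. The naming rule took all members; of each other list, up to 4 called genes by size of change, at 1 CPM or more on average; and PPARA, ACACB, ETFA, ETFB, ACACA and PPARGC1A. A few genes that it selects are not reported here, and other list genes were named once their values had been seen. Exon-exon reads as an alternative were added after seeing the data.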

Additional observations from a re-analysis of the deposited data

How the results depend on the processing

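CPT1A, SLC25A20, ACADM, ETFDH and HADH kept direction and call under 13 alternatives: uniquely mapped, exon or exon-exon reads, library size as the only scaling, DESeq2, no filter on low counts, the replicate block and each of the 6 libraries left out. CPT1A ranged from -0.84 to -0.75, SLC25A20 from -0.71 to -0.55 and HADH from 0.12 to 0.22. ACADVL ranged from -0.13 to 0.0095 and passed in 3 (exon reads, exon-exon reads, library size as the only scaling). With library size as the only scaling, 7 members were lower in place of 4. Over all genes tested, 2459 were lower with exon-exon reads, which leave fewer genes to test, against 3761. The difference in the log2 ratio of ACADVL to ACADM, 0.13 in gene reads, was lost with exon-exon reads (-0.00253). The cause was not tested. The labels do not say whether equal replicate numbers pair the libraries. Deviations from the group mean correlated at -0.085, 0.026 and -0.049 for equal numbers and at -0.088 to 0.13 for unequal ones. With 3 libraries per group such values cannot decide whether libraries were paired. The fit with the replicate block gave 4 members lower and 1 higher, with 3793 genes lower and 3769 higher over all genes. Depth limits, among others, the intron reads of SLC25A20, CPT1A, HADHA and CPT2 and low genes such as FABP4, G0S2 and CPT1C.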
